A study of Mus musculus with 3 samples.

Results

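Genes of coagulation, anticoagulation and fibrinolysis were examined in glomerular endothelium of adult mice. The set held 41 genes with a textbook place in the clotting cascade, its inhibitors, the plasminogen system or the receptors that sense clotting proteases. A gene was taken as measured when a probe set naming that gene alone carried its symbol. By this rule 40 of the 41 genes were measured, with 41 probe sets, among 19938 genes and 21789 probe sets that name a single gene. F2rl1, which encodes protease-activated receptor 2, was not measured in this way and is not analysed here, and Fga had 2 probe sets.

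The cells were sorted by GFP fluorescence from sieved and trypsinised glomeruli of Tie2-GFP mice, which carry the transgene Tg(TIE2GFP)287Sato on a mixed background that is mainly CD-1. GFP is driven in these mice by the Tek (Tie2) promoter, which marks endothelium and is also active in some blood cells. Replicates 1, 3 and 5 made up the only group of 3 arrays, and 1 kidney of an untreated adult of unstated sex was used for each without pooling. Each probe set was therefore compared with a level and not with another group. The level was 100 on the linear scale, or 6.64 on the log2 scale of the deposited values, after the number that the study used as its filter on raw values. That filter was applied in another program (GeneSpring), so the same number need not mark the same signal here. Tbp, a ubiquitous gene at 6.89 on each array, was called neither above nor below it. The level is therefore a reference and not a limit of detection.

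Blood is kept fluid in capillaries by surface proteins of the endothelium. Thrombin that binds thrombomodulin loses its clotting activity and activates protein C, which with protein S as cofactor degrades the clotting cofactors V and VIII. Tissue factor starts clotting when plasma reaches cells outside the vessel, and tissue factor pathway inhibitor blocks that step. Plasmin, made from plasminogen by tissue-type or urokinase-type activator, dissolves fibrin. Most plasma clotting factors are products of the liver, whereas factor VIII and von Willebrand factor are made by endothelial cells.

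The arrays carried the profile of endothelium. All 8 endothelial markers, among them Tek with 11, 10.18 and 10.77 and Pecam1 with 10.32, 10.02 and 10.43 on replicates 1, 3 and 5, were called above the level. Where 72.5% of all probe sets were called below the level, lists of cells that could carry clotting genes into the sort were called below it throughout. These were 7 of 7 monocyte and macrophage genes (mean log2 signals 3.38 to 5.33), 4 of 4 platelet genes (3.38 to 5.88), 5 of 5 liver genes (3.43 to 5.75), 5 of 5 fibroblast genes (3.12 to 5.89), 6 of 6 mesangial and smooth muscle genes (4.22 to 5.28) and 6 of 6 proximal tubule genes (3.30 to 5.37). Of 4 podocyte genes 3 were below, and the other was Podxl at 9.86 ± 0.08, which endothelium also expresses. Array medians over all 35557 probe sets were 4.85, 4.80 and 4.79 for replicates 1, 3 and 5. The number of arrays limits the precision, and p-values rest on the spread between these 3 arrays, which the study describes as independent biological samples. For 19 of the 40 genes of the set the values were identical on all 3 arrays, so that spread was 0. The p-values and intervals of those genes rest on a variance prior estimated from 4406 probe sets with 3 distinct values, pooled with that spread of 0. The spread of 0 lowered these p-values and narrowed these intervals. With the prior variance alone, the limma adjusted p was 0.00604 in place of 6.9e-05 for Anxa5. For Tfpi2 it was 0.0142 in place of 0.000293. The p-values and intervals of the 19 genes do not measure a spread of the gene between samples.

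In glomerular endothelium 5 of 7 surface anticoagulant genes, the tissue-type plasminogen activator gene with Anxa2 and S100a10, and the factor VIII gene were called above the level, whereas the other 8 clotting factor genes were called below. Of the 40 measured genes, 12 were called above 100 (30%), against 15.8% of all probe sets tested. A further 26 were called below (65%), against 72.5% of all, and 2 were called neither (5%), against 11.6%. The median log2 signal of the 40 genes was 5.18, beside 5.02 over all genes. The genes called above had mean log2 signals between 7.45 and 11.19 and those called below between 2.72 and 5.62, and the 2 without a call were Plaur and Mertk at 6.99 and 6.89. Values of different probe sets depend on their probes as well as on the transcripts, so each gene was read against the level and not against another gene.

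**Figure D1:**
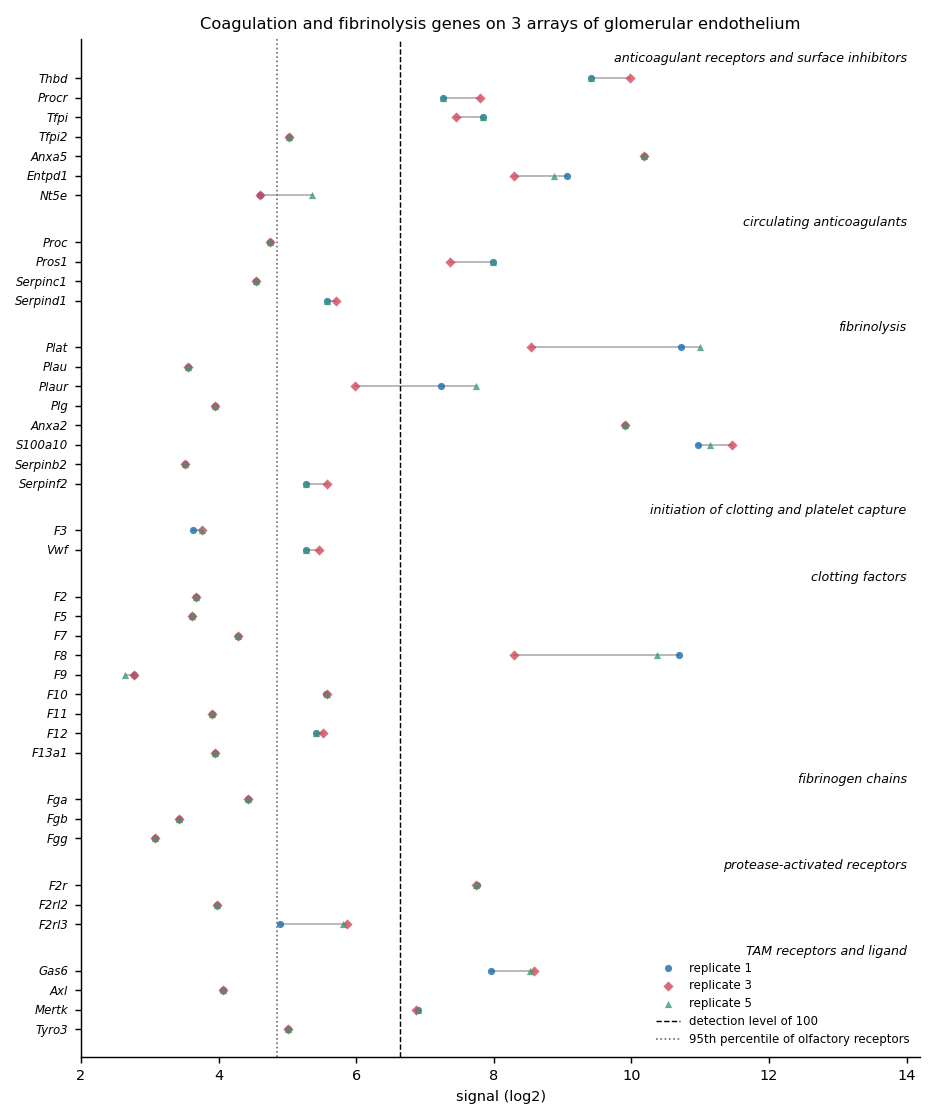
Log2 signal (horizontal axis) of the 40 measured coagulation and fibrinolysis genes (rows, grouped by role) on replicates 1, 3 and 5 (points), with the level of 100 dashed and the olfactory receptor level (95th percentile) dotted. The 12 genes called above lie to the right of the dashed line on every array, while Plaur crosses it, with 5.98 on replicate 3 against 7.23 and 7.74 on replicates 1 and 5.

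Of the 7 surface anticoagulant genes, 5 were called above the level (71.4%, against 15.8% of all probe sets) and 2 below. Thbd, which encodes thrombomodulin, had log2 signals of 9.42, 9.97 and 9.42 on replicates 1, 3 and 5. Its mean of 9.60 ± 0.32 (SD, n = 3) was 7.77-fold above the level (95% interval of the mean 9.11 to 10.09, limma adjusted p = 0.000162). Procr encodes the endothelial protein C receptor, which presents protein C to the thrombin and thrombomodulin complex. It had 7.27, 7.80 and 7.27, a mean of 7.45 ± 0.31 and a signal 1.74-fold above the level (adjusted p = 0.0116). The genes of both partners of protein C activation were thus above the level on every array, and both were highest on replicate 3. Against a level of 200 the call of Procr was lost (-0.20 log2, adjusted p = 0.324) and that of Thbd kept.

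Tfpi, the Kunitz-type inhibitor of factor Xa and of the complex of tissue factor with factor VIIa, had 7.85, 7.45 and 7.85. Its mean of 7.72 ± 0.23 was 2.10-fold above the level (adjusted p = 0.0027), and replicate 3 was the lowest array. This call was lost against 200 (adjusted p = 0.666). The related inhibitor gene Tfpi2 had 5.03 on each array and was called below (adjusted p = 0.000293). Anxa5 encodes a protein that covers exposed phosphatidylserine, the lipid on which clotting complexes assemble, and had 10.18 on each array, 11.6-fold above the level (adjusted p = 6.9e-05).

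The pair of ectoenzymes that turn released ATP and ADP into adenosine was split. Entpd1 (CD39), which removes the platelet agonist ADP, had 9.06, 8.30 and 8.87 and a mean of 8.74 ± 0.40, 4.29-fold above the level (adjusted p = 0.000708). Nt5e (CD73), which forms adenosine from AMP, had 4.60, 4.60 and 5.36, with a mean of 4.85 ± 0.43 (adjusted p = 0.0015). None of the arrays reached the level for Nt5e, and all did for Entpd1.

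Among the anticoagulants that circulate in plasma, 1 of 4 was called above (25%, against 15.8% of all probe sets). Pros1, which encodes protein S, had 7.99, 7.37 and 7.99 with a mean of 7.78 ± 0.36, 2.20-fold above the level (adjusted p = 0.00468), a call that was lost against 200 (adjusted p = 0.507). Proc (protein C) at 4.75 and Serpinc1 (antithrombin) at 4.55 had the same value on all 3 arrays, and both were called below. Serpind1, the heparin cofactor II gene, was below as well at 5.62 ± 0.07.

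Of the 8 genes of fibrinolysis, 3 were called above (37.5%, against 15.8% of all probe sets), 4 below (50%, against 72.5%) and 1 neither. The activator gene Plat had 10.72, 8.54 and 11 and a mean of 10.09 ± 1.35, 10.9-fold above the level (adjusted p = 0.00449). All 3 arrays were above 100, although replicate 3 was far lower than the other arrays. Without it the mean of Plat was 4.22 log2 over the level, against 3.44 with all arrays. Plau, the urokinase gene, had 3.56 on each array and was called below (adjusted p = 6.9e-05). Plg (plasminogen, a liver product) was below at 3.94 on each array.

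Transcripts of the annexin A2 complex, which gathers plasminogen and its activator on the cell surface, were above the level, and protein was not measured. Anxa2 and S100a10 encode the annexin A2 and p11 subunits of one complex that binds plasminogen and tissue-type activator. Anxa2 had 9.90 on each array, 9.56-fold above the level. S100a10 had 10.97, 11.47 and 11.14, with a mean of 11.19 ± 0.25, 23.4-fold above it. Both had an adjusted p of 6.9e-05. Plaur, the urokinase receptor gene, had 7.23, 5.98 and 7.74 and was called neither, at 6.99 ± 0.91 (95% interval 5.92 to 8.06, adjusted p = 0.441). Without replicate 3 it was called above, 0.84 log2 over the level (adjusted p = 0.0126). The inhibitor genes of this system were called below, with Serpinb2 (plasminogen activator inhibitor 2) at 3.51 on each array and Serpinf2 (alpha 2-antiplasmin) at 5.37 ± 0.17.

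**Figure D2:**
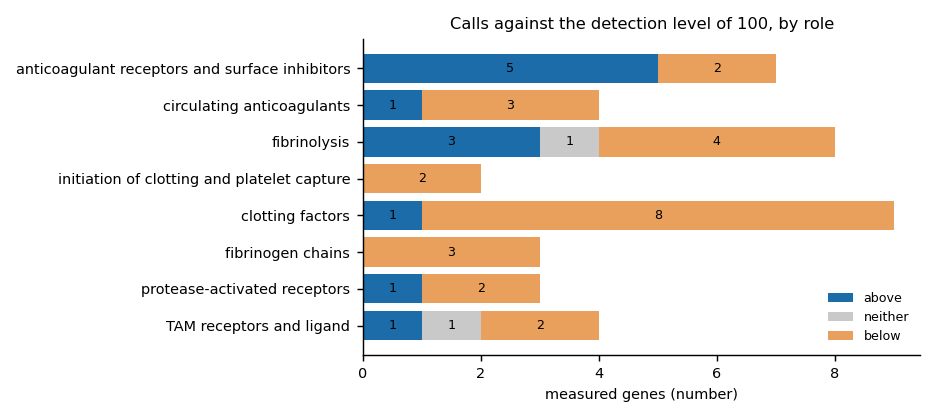
Number of measured genes (horizontal axis) in each role (rows) that were called above 100, below it or neither by limma over the 3 arrays. The surface anticoagulants had 5 of 7 genes above (71.4%) and the clotting factors 1 of 9 (11.1%), while no fibrinogen chain was above. Of all probe sets 15.8% were called above and 72.5% below, so the share of clotting factors above was near that of all.

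F3 and Vwf, the genes that start clotting and capture platelets, were both called below. F3 (tissue factor) had 3.63, 3.75 and 3.75 (adjusted p = 7.5e-05). Vwf encodes von Willebrand factor, which large-vessel endothelium stores in Weibel-Palade bodies, and had 5.27, 5.45 and 5.27, with a mean of 5.33 ± 0.11, 2.48-fold under the level (adjusted p = 0.000714). A lower level was taken from olfactory receptor genes, most of which serve olfactory neurons, as the 95th percentile of their 1035 probe sets (28.9, or 4.85 in log2). Against this level Vwf was called above, by 0.48 log2 (adjusted p = 0.0251), and F3 was called below. Some marker genes of other cell types were called above it as well, among them C1qa at 5.33, Slc34a1 at 5.37 and Nphs1 at 5.47. Others, such as Csf1r and Alb, were called below it. The call of Vwf at the lower level therefore does not set it apart from those markers.

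At that lower level 19 of the 40 genes were called above (47.5%), against 44.4% of all probe sets, and 15 below (37.5%), against 36.2%. Both shares were near those of all probe sets at the lower level. The genes that moved to the upper side were Plaur, Mertk, Vwf, Serpind1, Serpinf2, F10 and F12.

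Of the 9 clotting factor genes, F8 was called above (11.1%, against 15.8% of all probe sets) and 8 were called below (88.9%, against 72.5%). F8, which encodes the cofactor of factor IXa and circulates bound to von Willebrand factor, had 10.70, 8.30 and 10.37 on replicates 1, 3 and 5. Its mean of 9.79 ± 1.30 was 8.84-fold above the level (adjusted p = 0.00551), and the lowest array was still above 100. With limma's variance prior taken from all probe sets, which includes variances of 0, the call of F8 was lost (adjusted p = 0.0547). With that prior Plat and Procr kept their calls only narrowly (adjusted p = 0.0491 and 0.0481). Without replicate 3 the mean of F8 was 3.89 log2 over the level, against 3.14 with all arrays. F8 and Vwf, whose proteins travel together in plasma, thus fell on opposite sides of the level on every array.

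The other 8 factors had levels far from the threshold or only moderately under it. F2 (prothrombin) at 3.67, F5 at 3.62, F7 at 4.28, F11 at 3.90 and F13a1, the A chain of the fibrin crosslinking factor XIII, at 3.94 had the same value on each array. F9 was at 2.72 ± 0.07, F10 at 5.57 ± 0.01 and F12 at 5.45 ± 0.06. The fibrinogen chain genes Fga at 4.42, Fgb at 3.43 and Fgg at 3.08 were below on every array, as was the other probe set of Fga, with 3.94, 4.02 and 4.02.

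Thrombin also signals to cells by cutting protease-activated receptors, which then fold back their new end as a ligand. F2r, the gene of the thrombin receptor Par1, had 7.76, 7.75 and 7.75 and a mean of 7.75 ± 0.01, 2.15-fold above the level (adjusted p = 0.00104), and this call was lost against 200 (adjusted p = 0.427). F2rl2, which encodes Par3, had 3.98 on each array and was called below (adjusted p = 8.3e-05). F2rl3, the Par4 gene, had 4.89, 5.87 and 5.81, a mean of 5.52 ± 0.55 and an adjusted p of 0.0134, and this call below was lost with the prior from all probe sets (adjusted p = 0.0737). Of the 3 receptors measured, the 3 arrays of F2r lay on the opposite side of the level to those of the other receptors. In the RefSeq annotation of GRCm38.p6 F2r and F2rl2 lie on chromosome 13 with 1 coding gene between them, and so neighbouring genes of one family were called differently.

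The TAM receptors (Tyro3, Axl and Mertk) bind protein S and Gas6, relatives that attach to phosphatidylserine on cell surfaces. The ligand gene Gas6 had 7.96, 8.58 and 8.53, with a mean of 8.36 ± 0.35, 3.28-fold above the level (adjusted p = 0.00106). Both ligands of the family, Gas6 and Pros1, were thus above. Of the receptors, Axl had 4.06 and Tyro3 5.01 on each array, and both were called below. Mertk had 6.90, 6.86 and 6.90, with all arrays over 100, but at 6.89 ± 0.02 it was called neither (95% interval 6.56 to 7.22, adjusted p = 0.116). Mertk was called above when the arrays were centred on their medians (adjusted p = 0.00199), when they were quantile normalized again (0.00317) and with the prior from all probe sets (0.00289). F7 and F10 are neighbours on chromosome 8 with no coding gene between them, and both were below, whereas Gas6 on the same chromosome was above.

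Many of the low values were not specific to a gene. Of the 40 genes, 19 (47.5%) had an identical value on all 3 arrays, against 54.1% of all probe sets. Identical values were found in 17 of the 26 genes called below and in 2 of the 12 called above, Anxa5 and Anxa2. All of those 17 genes also shared their value with other probe sets. Plau had the same 3 values as 190 other probe sets, Plg and F13a1 the same as 171, with 3.94 for both, Serpinc1 as 154, Fga as 148 and F2 as 74. None of the genes called above shared its values with another probe set. Over the whole array, the 11791 probe sets with identical values held 2489 different values. A low value of this kind therefore places a gene under the level and does not resolve how far it lies from others.

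**Figure D3:**
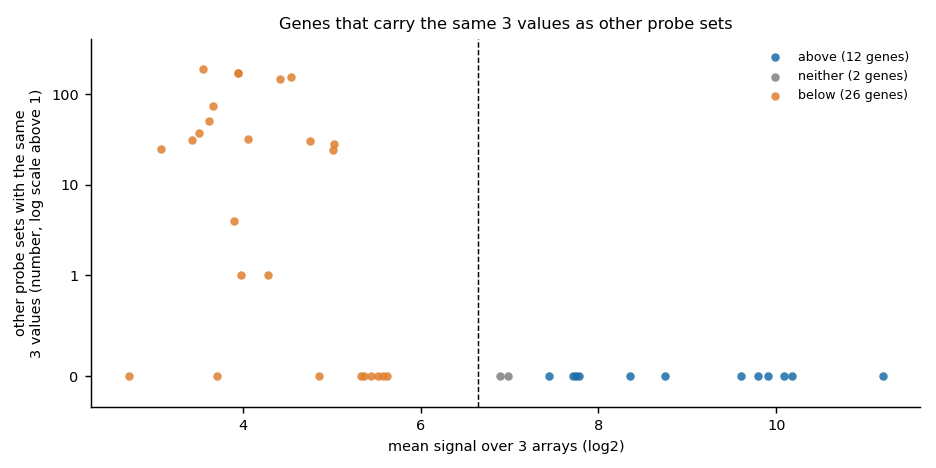
Mean log2 signal of each of the 40 genes (horizontal axis) against the number of other probe sets with exactly the same values on all 3 arrays (vertical axis, log scale above 1), with the level of 100 as a dashed line. Sharing occurs in 17 genes, all called below, and reaches 190 probe sets for Plau.

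Since 19 of the 40 genes had the same value on all 3 arrays, differences between arrays could be read only for the others. Of those, 14 had exactly the same value on 2 arrays, so their differences and SDs rest on 1 odd array. Only 7 genes had 3 distinct values. The highest and lowest array were over 2-fold apart (over 1 log2) for 3 of the 40 genes (7.5%), against 5.73% of all probe sets. These were Plat, F8 and Plaur, and all were lowest on replicate 3. The spread was 2.46 log2 for Plat, 2.40 for F8 and 1.76 for Plaur. Against the mean of replicates 1 and 5, replicate 3 was 4.99-fold lower for Plat, 4.73-fold lower for F8 and 2.84-fold lower for Plaur. Replicates 1 and 5 differed by much less, with 0.28 log2 for Plat, -0.32 for F8 and 0.51 for Plaur (replicate 5 minus replicate 1). Without replicate 3 no gene of the set had a spread over 1 log2.

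Replicate 3 did not stand low throughout. Entpd1, Pros1 and Tfpi were also lowest there, by 0.67, 0.62 and 0.40 log2 against the mean of replicates 1 and 5. Pros1 and Tfpi each had exactly the same value on replicates 1 and 5. Thbd and Procr were higher on replicate 3 by 0.56 and 0.54 log2, with the same value on the other arrays, and S100a10 and Gas6 by 0.41 and 0.34. Of the 14 genes not called below, 7 (50%) were lowest on replicate 3 alone and 4 (28.6%) highest there. Over all 5224 genes not called below, 29.6% were lowest and 21.2% highest on replicate 3. Among all 1011 genes with a spread over 1 log2, 480 (47.5%) were lowest on replicate 3.

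Most endothelial markers were lowest on replicate 3 as well. Of the 8 markers 6 were lowest there, and their median was 10.76, 10.10 and 10.75 on replicates 1, 3 and 5. Kdr, a VEGF receptor gene, had the widest spread (1.66 log2), with 10.83, 9.53 and 11.18. Tek, Pecam1, Cdh5, Flt1 and Emcn had spreads of 0.41 to 0.82 log2. Eng (8.91, 9.31 and 9.96) and Erg (8.49, 8.64 and 8.65) were lowest on replicate 1. The summed linear signal of the 8 markers, in which Emcn was the largest part, was 16090, 10810 and 18090. That of the 7 monocyte and macrophage genes was 171.5, 171.7 and 161.2, and that of the 6 mesangial and smooth muscle genes 218.0, 175.6 and 170.6. The part of these markers in the differences of Plat, F8 and Plaur was not tested. In RNA from sorted cells, fewer cells of a type and less RNA per cell cannot be told apart.

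**Figure D4:**
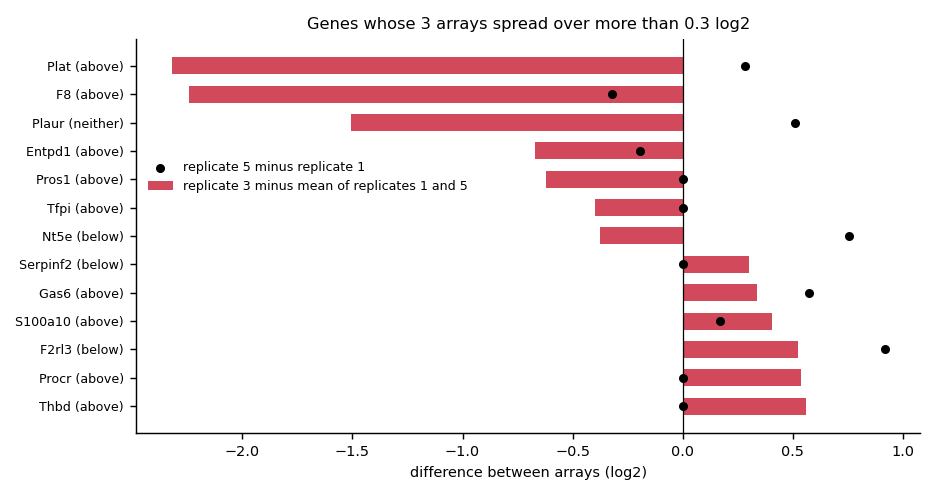
Log2 difference between replicate 3 and the mean of replicates 1 and 5 (bars) and between replicates 5 and 1 (points) for the 13 genes whose arrays spread over more than 0.3 log2, with the call of each gene in brackets. Plat, F8 and Plaur have the longest bars, on the side where replicate 3 is lower, and Thbd and Procr are at the other end.

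Promoters are shown for F8 and Plaur, which were low on replicate 3, and for Procr, which was high there. Plat and Thbd had no entry among the promoter sequences used. The sequences are those of RefSeq for GRCm38.p6, from 250 bases before to 50 after the gene start, written 5′ to 3′ on the strand of the gene. Capitals mark the core of ETS factor sites (GGAA, or TTCC on the other strand) and the AP-1 site (TGANTCA). F8 lies on chrX:75379992-75380291 (minus strand), Plaur on chr7:24462233-24462532 (plus strand) and Procr on chr2:155750967-155751266 (plus strand).
F8: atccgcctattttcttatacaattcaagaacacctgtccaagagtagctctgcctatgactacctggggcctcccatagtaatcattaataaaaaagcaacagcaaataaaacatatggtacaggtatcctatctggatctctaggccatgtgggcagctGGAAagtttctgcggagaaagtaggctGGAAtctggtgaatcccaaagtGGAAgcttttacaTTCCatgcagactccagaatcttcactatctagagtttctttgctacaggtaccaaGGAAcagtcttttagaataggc
Plaur: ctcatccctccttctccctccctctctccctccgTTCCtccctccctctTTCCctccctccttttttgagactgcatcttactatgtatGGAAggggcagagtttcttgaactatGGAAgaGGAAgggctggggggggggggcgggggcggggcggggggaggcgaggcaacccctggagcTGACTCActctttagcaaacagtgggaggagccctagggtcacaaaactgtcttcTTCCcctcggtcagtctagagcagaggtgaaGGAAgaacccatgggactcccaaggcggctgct
Procr: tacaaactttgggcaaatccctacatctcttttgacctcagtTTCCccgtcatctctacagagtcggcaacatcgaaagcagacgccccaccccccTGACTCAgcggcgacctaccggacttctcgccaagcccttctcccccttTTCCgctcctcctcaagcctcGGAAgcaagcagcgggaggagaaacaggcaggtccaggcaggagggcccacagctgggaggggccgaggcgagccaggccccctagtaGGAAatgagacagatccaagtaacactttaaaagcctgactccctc

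The F8 window held 5 ETS cores, the Plaur window 7 and the Procr window 4, and 96% of 32851 mouse promoter windows of this length hold at least 1. Windows on chromosome 18, where Proc lies, were left out of all promoter counts. The AP-1 letters occurred once each in Plaur and Procr and were not found in this window of F8. After that exclusion, promoter windows were at hand for 33 of the 41 genes, some with several. Of 5 motifs searched on both strands, the ETS core was found for 33 of these 33 genes (100%), beside 96.5% of 27025 genes with a window. The other shares were 72.7% beside 59.8% for the KLF box (CACCC), 39.4% beside 38.2% for the SP1 box (GGGCGG), 30.3% beside 8.97% for the AP-1 site and 12.1% beside 15.7% for the TATA box (TATAAA). The 10 genes with AP-1 letters fell on both sides of the level. Anxa2, F2r and Procr were called above, Plaur neither, and F2, F2rl2, F3, Fgb, Serpinb2 and Tfpi2 below. A match of letters is a description and not a binding site.

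Other genes of haemostasis were read in the same way. Of 45 measured genes of the wider list, 9 (20%) were called above, against 15.8% of all probe sets, 30 below (66.7%, against 72.5%) and 6 neither (13.3%, against 11.6%). These shares were near those of all probe sets. In the secretion route of clotting factors, Lman1, the cargo receptor that carries factors V and VIII out of the endoplasmic reticulum, was above with 8.25, 8.02 and 8.57. Its partner gene Mcfd2 was below at 5.75 on each array. P4hb (protein disulfide isomerase) had 7.86, 7.35 and 7.86, and Vkorc1l1, a vitamin K reductase, 8.17, 7.92 and 7.34, and both were called above. Its paralogue Vkorc1 spread around the level with 6.03, 7.21 and 6.71, and was called neither, and Ggcx, the carboxylase that uses vitamin K, was below at 5.51 ± 0.10.

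Of 8 genes of heparan sulfate and the lipid surface, 3 were called above (37.5%, against 15.8% of all probe sets) and 5 below (62.5%, against 72.5%). The plasminogen receptor gene Plgrkt was above with 8.18, 8.55 and 7.55, as were Ano6, a scramblase that exposes phosphatidylserine, with 8.85 on each array, and Ext2, which builds heparan sulfate chains, with 7.50, 7.65 and 7.65. Hs3st1, whose enzyme makes the antithrombin-binding form of heparan sulfate, was below at 4.35 on each array, as were Ext1, the partner of Ext2, with 5.42, 6.39 and 5.42 (a call lost without replicate 1 or 5), and Sdc4, Xkr8 and Lrp1. Of 7 genes of endothelial storage and secretion, 1 was above (14.3%), Cd63 at 9.08 ± 0.06, while 5 were below (71.4%), among them Angpt2 at 4.74 ± 0.09, and 1 was neither. Both shares were near those of all probe sets (15.8% and 72.5%). P2ry1, an ADP receptor gene, had 7.89, 7.15 and 7.89 and was above, a call that was lost with the prior from all probe sets, and Pecam1 was the ninth gene above.

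Of the 5 protease inhibitor genes, 2 had arrays over 1 log2 apart (40%, against 5.73% of all probe sets). Serpini1 (neuroserpin, an inhibitor of tissue-type activator) had 7.76, 8.19 and 6.74 and just missed the threshold at 7.56 ± 0.74 (adjusted p = 0.0532). Serping1 (C1 inhibitor) had 7.35, 7.53 and 6.0 and was called neither as well. Without replicate 5, where both were lowest, both were called above. The other genes without a call were Stxbp5 with 7.02, 6.73 and 6.90, Tbxa2r (the thromboxane receptor) with 6.87 on each array and Nos3 (endothelial nitric oxide synthase) with 6.31, 6.93 and 6.63. All 7 plasma factor genes and all 5 platelet adhesion receptor genes measured were called below, where 72.5% of all probe sets were. Their mean log2 signals were 2.83 to 5.17 and 4.68 to 5.45.

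**Figure D5:**
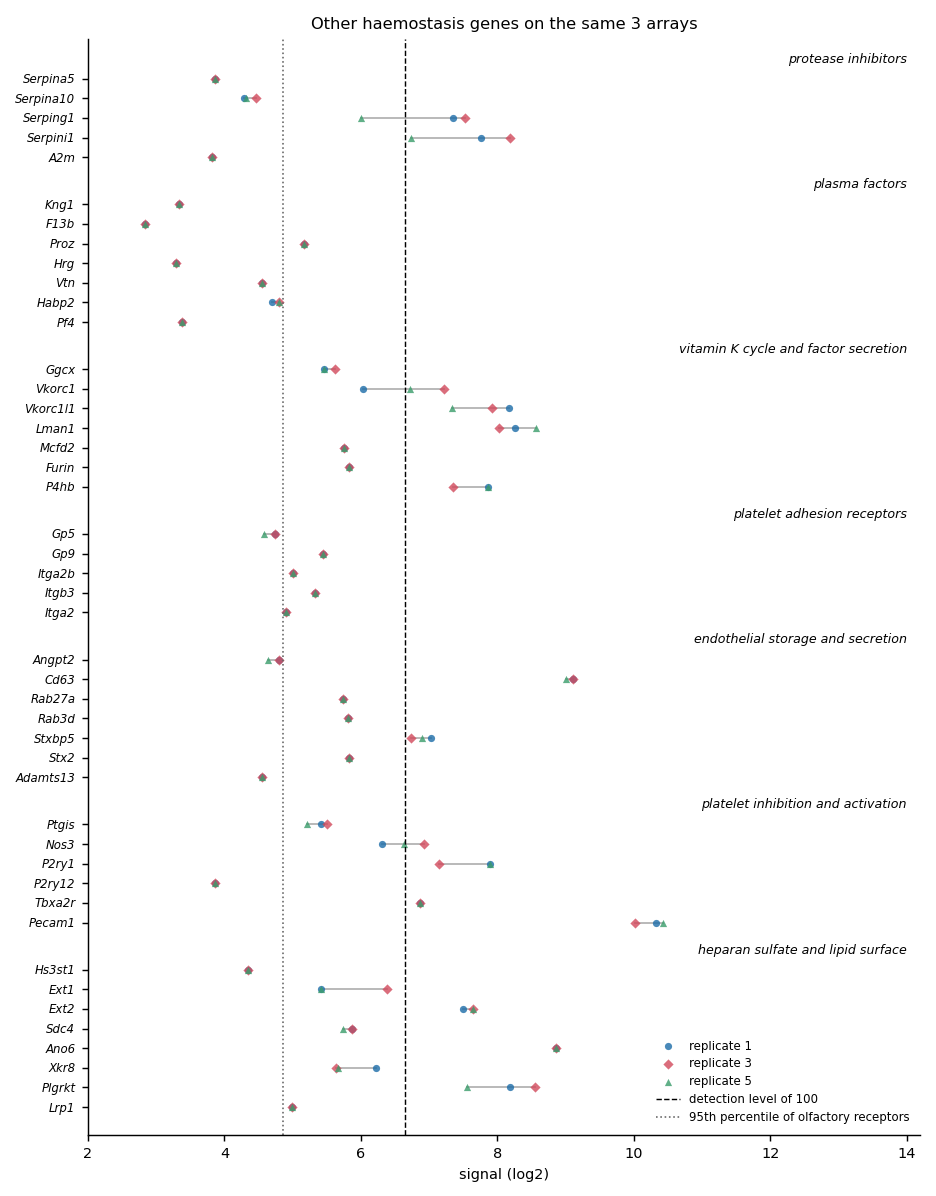
Log2 signal (horizontal axis) of 45 other haemostasis genes (rows, grouped by role) on replicates 1, 3 and 5 (points), with the level of 100 (dashed) and the olfactory receptor level (dotted). Lman1, P4hb, Vkorc1l1, Cd63, P2ry1, Pecam1, Ext2, Ano6 and Plgrkt are the 9 genes called above, and Serping1 and Serpini1 are lowest on replicate 5.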

How the data were processed

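Amplified RNA of the sorted cells was measured on the Mouse Gene 1.0 ST platform of Affymetrix. The log2 signals per probe set are as deposited by the authors, who used Affymetrix Expression Console (per the labels, version not given in the sources used here) and name RMA normalization in their methods. The sources used here do not say which arrays were normalized as one batch. Values ranged from 1.39 to 14.40. Names came from the annotation of the platform, in which 21789 name 1 gene and 1621 name several. Of the former, 21698 matched RefSeq (GRCm38.p6) by Entrez identifier and kept their symbols. Where a gene had more than 1 probe set, that with the highest mean was counted.

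limma 3.58.1 in R 4.3.3 was fitted to the 3 arrays with an intercept, and each mean was tested against log2 of 100 in a two-sided test, adjusted by Benjamini-Hochberg over the 21789 probe sets, at a threshold of 0.05. The variance prior (SD 0.288, 2.03 degrees of freedom) came from the 4406 probe sets with 3 distinct values, so that variances of 0 did not enter it. The prior was then pooled with the variance of each probe set, also where that variance was 0, which made such p-values smaller. Intervals are 95% moderated intervals of the mean. Values within 1e-09 were called identical. The fit was tested on simulated data, where genes away from the level were mostly recovered and genes placed exactly at it were called more often than the nominal rate, so calls close to the level are the least secure. The genes, role groups, wider lists and the choice of prior were made with earlier results of these data known. Genes were named by rule, namely every member, the genes of the wider list called above or neither, and marker genes listed first or not called below, together with a few genes below that were named for their role after their values were seen. The motifs were chosen after the values were seen. Figures were drawn with matplotlib 3.10.9 in Python 3.11.15.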

Additional observations from a re-analysis of the deposited data

How the results depend on the processing

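The choice of level decided most. At a level of 50, 6 of the 40 genes were called neither, and 15 of the 45 other haemostasis genes above, 18 below and 12 neither. At 200, 8 were called above, 27 below and 5 neither, with 4 other genes above. Tfpi, Pros1, F2r and Procr lost their calls, and Procr lay under the level (-0.198 log2). Mertk was called below (-0.755 log2), and Plaur lay under the level as well (-0.657 log2) but stayed without a call. Shares over all probe sets were counted only in the main fit and at the olfactory receptor level. The other counts in this section therefore show how calls move and not how the set stands to all genes. At the olfactory receptor level 19 were above, 15 below and 6 neither, with 27 other genes above and 9 below, and Tfpi2 (0.17 log2 over the level), Serpind1 (0.77), Serpinf2 (0.52), Vwf (0.48), F10 (0.72), F12 (0.59), F2rl3 (0.67) and Tyro3 (0.16) had means over it, of which Tfpi2, F2rl3 and Tyro3 were called neither. Calling genes by 100 on all arrays without a test, centring the arrays or normalizing them again left 1 gene without a call, and the first left 3 other genes. Leaving out the dimmest 25% of probe sets removed 12 genes by construction and left 14 below. With the intensity-trended prior, the lowest probe set of a gene, or the prior variance alone for identical values (added after seeing the data), all 40 calls were the same. Without replicates 1, 3 or 5, between 12 and 13 genes were above, 26 below and 1 to 2 neither, with 9 to 11 other genes above, 29 to 30 below and 5 to 7 neither, and between 0 and 3 genes spread over 1 log2, with 0 when replicate 3 was left out. A spread over 0.5 log2 was found for 10 genes and over 2 log2 for 2, and the shares of all probe sets at these limits were not counted. No paired analysis was possible because there is a single group.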
